A study of Mus musculus with 24 samples.

Results

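Complement components and receptors were read in the frontal cortex of WT and GFAP-IL6 mice as the gene rows whose symbol is C1qa, C1qb, C1qc, C3, C4b, C4a, Serping1, C3ar1 or C5ar1. Of these 9 genes, 8 had a row among the 33000 genes of the count table, of which 20629 had at least 1 count in any library. C4a is not analysed here. The mice were C57BL/6 wild types (WT) and homozygous GFAP-IL6 animals, all 3 months old, with 3 mice per genotype. GFAP-IL6 mice express interleukin 6 from the promoter of Gfap, a gene of astrocytes, so the cytokine is made by these cells. The RNA of each mouse was made into 4 libraries by 3'Pool-seq, which counts reads from the 3' end of polyadenylated transcripts, with 2 ng or 1 ng of pooled cDNA in the tagmentation and in sets lettered A and B. The labels do not say what the letters stand for. The 4 libraries of a mouse share its RNA and were summed, which left 6 samples.

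Complement is a cascade of secreted proteins that tags debris, microbes and, in the brain, synapses. C1q, built from the products of C1qa, C1qb and C1qc, starts the classical pathway. Bound C1q activates proteases that cleave C4 and then C3, whose fragments stay on the surface as opsonins or are released as the peptide C3a. C3a and the later peptide C5a act on the receptors made by C3ar1 and C5ar1, and the product of Serping1, C1 inhibitor, blocks the first proteases. In the brain C1q is made mostly by microglia, and C4 by several cell types that include astrocytes.

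The 3 C1q genes lay side by side on the minus strand of chromosome 4 (mm10, GENCODE), each with 3 exons. C1qb spanned chr4:136880129-136886187, C1qc chr4:136889804-136893065 and C1qa chr4:136895917-136898803, so that the cluster covered 18675 bases. The promoter windows of C1qb and C1qc are shown because these neighbours changed together, and that of C5ar1 because it was the receptor with the larger change. Each is 300 bases around the gene's start from RefSeq on GRCm38.p6, 5' to 3' on the minus strand, at chr4:136886151-136886450, chr4:136892865-136893164 and chr7:16259289-16259588. Capitals mark GAGGAA, the core bound by ETS factors such as Spi1, or its reverse complement TTCCTC.
C1qb: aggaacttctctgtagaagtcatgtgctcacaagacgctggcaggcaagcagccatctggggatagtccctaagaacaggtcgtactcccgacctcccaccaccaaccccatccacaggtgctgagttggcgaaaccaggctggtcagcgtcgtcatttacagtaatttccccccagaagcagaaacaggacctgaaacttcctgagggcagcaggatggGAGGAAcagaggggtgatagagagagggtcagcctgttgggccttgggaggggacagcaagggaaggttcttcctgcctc
C1qc: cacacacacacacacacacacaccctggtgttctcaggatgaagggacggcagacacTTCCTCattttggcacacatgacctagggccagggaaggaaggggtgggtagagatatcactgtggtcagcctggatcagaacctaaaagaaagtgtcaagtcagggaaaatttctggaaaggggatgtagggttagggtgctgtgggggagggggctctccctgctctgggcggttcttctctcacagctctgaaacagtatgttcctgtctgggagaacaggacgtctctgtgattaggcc
C5ar1: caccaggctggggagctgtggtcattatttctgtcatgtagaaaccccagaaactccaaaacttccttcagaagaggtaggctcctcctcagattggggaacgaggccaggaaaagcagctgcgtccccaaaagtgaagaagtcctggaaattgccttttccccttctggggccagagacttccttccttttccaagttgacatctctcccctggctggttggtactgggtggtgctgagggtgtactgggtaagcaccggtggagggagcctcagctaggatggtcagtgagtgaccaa
A promoter was held by the table for 5 of the 9 genes (C1qb, C1qc, C3, C3ar1 and C5ar1). GAGGAA stood at -30 to -25 from the RefSeq start of C1qb and TTCCTC at -193 to -188 from that of C1qc. The GENCODE starts of C1qc (chr4:136893065) and C5ar1 (chr7:16259540) lay upstream of their RefSeq starts. Most of the window of each therefore fell inside the GENCODE gene, and the C1qc match was nearer to the GENCODE start than to the RefSeq start. On either strand this core was in 28.3% of 32851 promoters of the same length. The C/EBP motif TTGCNNAA or its reverse complement TTNNGCAA, in 10.8% of promoters, matched at -45 to -38 in C3, and the palindromic STAT motif TTCNNNGAA, in 8.3%, matched in none of the 5. No matches overlapped each other, and the windows of C3ar1 and C5ar1 held none of the 3 motifs. For C5ar1 this says little of the sequence upstream of its GENCODE start, since most of that sequence lay outside the window.

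The genotype labels were checked first. Il6 stood at 0.260, 0.166 and 0 CPM (counts relative to the total of the library, scaled by TMM) in WT mice 1 to 3, and at 3.16, 1.58 and 4.23 CPM in GFAP-IL6 mice 1 to 3. Gfap stood at 20.3, 23.6 and 16.0 CPM in WT mice against 80.9, 102 and 146 CPM in GFAP-IL6 mice. Both genes were higher in all 3 GFAP-IL6 mice than in any WT mouse. Library totals ran from 1524165 to 12256374 counts, and summed totals from 7852743 (WT mouse 3) to 37582644 (GFAP-IL6 mouse 3). WT mouse 3 also stood apart in 4 choroid plexus markers, whose summed level was 4068 CPM against 77.8 to 750 CPM in the other 5 mice. Their part in the results below was not tested, and values without this mouse are given with the C1q chains.

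The first question was whether complement genes differed between genotypes. C1qa, C1qb, C1qc, C4b and C5ar1 were higher in GFAP-IL6 cortex, by 2.47- to 12.5-fold in mean CPM, while C3, Serping1 and C3ar1 did not pass the test. A gene was called at an adjusted p below 0.05 (edgeR, Benjamini-Hochberg over all genes tested) and an absolute log2 fold change above 1. By this rule 5 of the 8 members were called and all 5 were higher, against 180 of 14621 genes called in either direction (1.23%) and 176 called higher (1.2%). With no threshold on fold change the members' count stayed at 5, against 255 genes higher (1.74%). The median log2 fold change of the 8 members was 1.43, and that of all genes tested was -0.0069. In each of the 8 members every GFAP-IL6 mouse lay above every WT mouse, as was so for 1232 of the genes tested (8.43%). Taken alone, 3 mice against 3 cannot give an exact two-sided permutation p below 0.1, and each member gave 0.1.

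**Figure D1:**
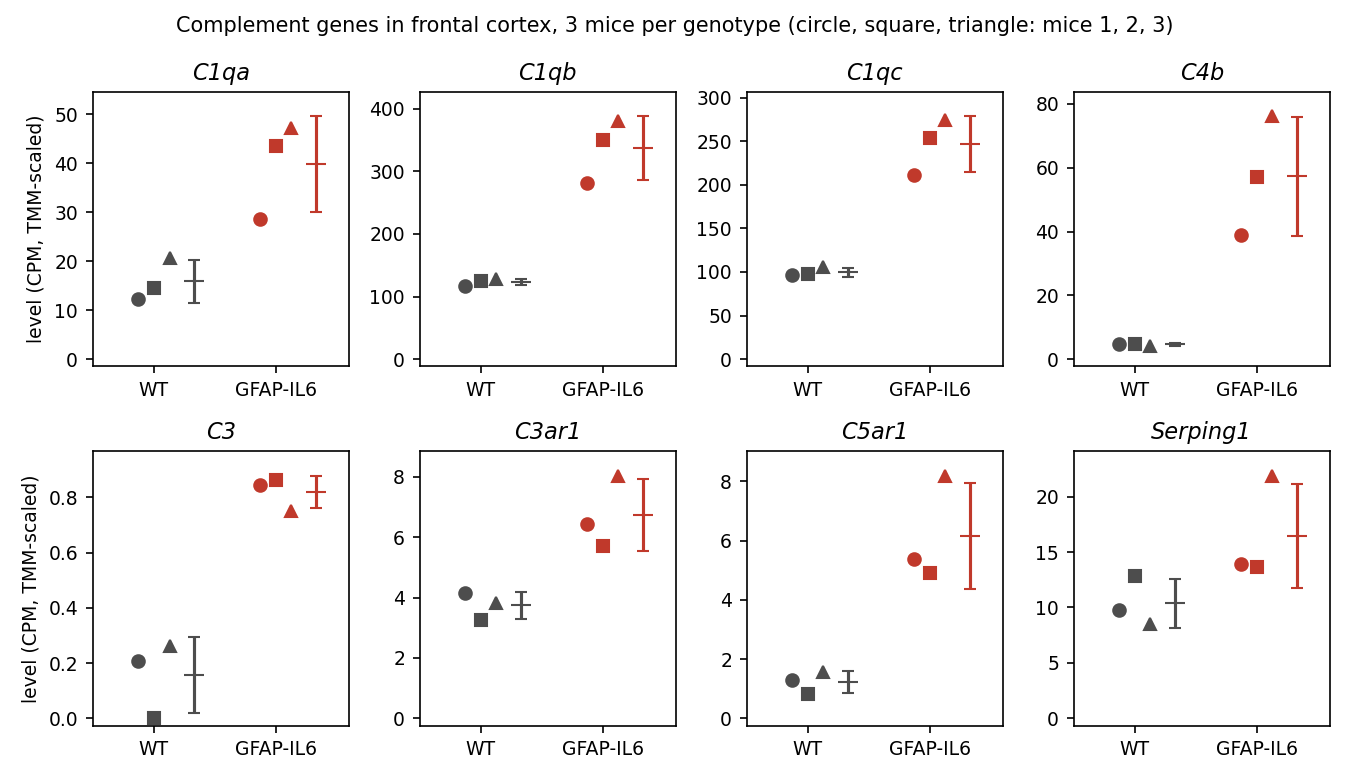
Level of each complement gene (CPM, TMM-scaled, linear axis) in the 3 WT (grey) and 3 GFAP-IL6 (red) mice, libraries summed per mouse. Symbols are mice, and the bar to the right of each group is the mean ± SD. In all 8 panels the red points lie above the grey ones, with the widest gap on a fold scale in C4b and the closest approach in Serping1, where WT mouse 2 is at 12.8 and GFAP-IL6 mouse 2 at 13.6 CPM.

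C1qb, which encodes the B chain of C1q, stood at 117, 125 and 128 CPM in WT mice and at 281, 350 and 381 CPM in GFAP-IL6 mice. Its mean rose from 123 ± 5.31 to 337 ± 50.8 CPM (SD, n = 3), a log2 fold change of 1.46 (SE 0.105, adjusted p = 1.41e-06, edgeR). C1qc, the C chain, stood at 96.4, 97.1 and 106 CPM in WT mice and at 211, 253 and 275 CPM in GFAP-IL6 mice, a log2 fold change of 1.31 (SE 0.0998, adjusted p = 1.59e-06, edgeR). In both genes the WT mice lay close together and the GFAP-IL6 mice were spread more widely, with mouse 1 lowest and mouse 3 highest. C1qa, the A chain, stood at 12.3, 14.6 and 20.7 CPM in WT mice and at 28.7, 43.5 and 47.3 CPM in GFAP-IL6 mice, a log2 fold change of 1.39 (SE 0.189, adjusted p = 0.00054, edgeR). WT mouse 3 was the highest WT mouse in each of the 3 chains. Without it the log2 fold changes were 1.597 for C1qa, 1.49 for C1qb and 1.36 for C1qc, and all 3 stayed called. The summed totals of GFAP-IL6 mice 1 to 3 (9534116, 20641341 and 37582644 counts) ran in the same order as their C1q levels. With every mouse thinned to 7852743 counts the log2 fold changes of C1qa, C1qb and C1qc were 1.303, 1.46 and 1.32, and the 3 genes were called.

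The chains assemble in equal numbers in the protein, so their ratios were compared between genotypes. Reads here are counted at the 3' end and not divided by length, so a ratio says nothing of the number of transcripts of one chain per transcript of another and was read between mice only. The CPM ratio of C1qc to C1qb was 0.821, 0.780 and 0.826 in WT mice and 0.752, 0.724 and 0.722 in GFAP-IL6 mice. The groups did not overlap, and the GFAP-IL6 mean was 0.905 times the WT mean (exact permutation p = 0.1, the smallest possible). The ratio of C1qa to C1qb was 0.105, 0.117 and 0.162 in WT mice and 0.102, 0.124 and 0.124 in GFAP-IL6 mice. Here the groups overlapped (exact permutation p = 0.8).

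C4b, a complement C4 gene of the classical pathway, had the largest fold change of the 8 members. It stood at 4.79, 4.82 and 4.20 CPM in WT mice and at 38.8, 57.2 and 76.1 CPM in GFAP-IL6 mice, a log2 fold change of 3.64 (SE 0.214, adjusted p = 1.15e-07, edgeR). The WT mice were within 1 CPM of each other, and the lowest GFAP-IL6 mouse was far above them. C4b (chr17:34728380-34743882, minus strand, 41 exons) has a close copy in C4a. Over the last 300 bases of the C4b transcript, 294 of 299 aligned bases (98.33%) were identical in C4a, so 3' reads without a differing base cannot be told apart. The study counted only reads with a unique position, so such reads would be left out of the C4b count. The C4b level is uncertain to that extent. No other member had such a copy by the same search.

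C3 encodes the protein on which the complement pathways converge, and it was near the limit of these libraries. It stood at 0.208, 0 and 0.262 CPM in WT mice and at 0.844, 0.863 and 0.752 CPM in GFAP-IL6 mice. These levels rest on 6 counts over all WT libraries and 55 over all GFAP-IL6 libraries, with 0 counts in 10 of the 24 libraries and 3 or fewer in 16. The rate ratio from the pooled counts was 5.97 (95% exact interval 2.58 to 17.0, counting error only). The groups did not overlap, yet the fitted log2 fold change of 2.52 (SE 0.707) missed the threshold (adjusted p = 0.117, edgeR). C3 lies at chr17:57203970-57228136 on the minus strand and contains the microRNA gene Mir6978, outside its last exon.

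Serping1, the inhibitor of the first proteases (chr2:84765387-84775444, minus strand), stood at 9.78, 12.8 and 8.53 CPM in WT mice and at 13.9, 13.6 and 21.9 CPM in GFAP-IL6 mice. GFAP-IL6 mouse 3 stood above the rest, and the other 2 lay just above WT mouse 2. The log2 fold change was 0.67 (SE 0.195, adjusted p = 0.138, edgeR), which did not pass. Without GFAP-IL6 mouse 3 it was 0.38 (adjusted p = 0.847, edgeR).

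The receptors differed in size of change. C5ar1, the receptor for C5a (chr7:16246743-16259540, minus strand), stood at 1.30, 0.831 and 1.57 CPM in WT mice and at 5.38, 4.89 and 8.20 CPM in GFAP-IL6 mice. Its log2 fold change was 2.41 (SE 0.304, adjusted p = 0.000291, edgeR), from 52 counts over WT and 469 over GFAP-IL6 libraries. C3ar1, the receptor for C3a (chr6:122847138-122856161, minus strand), stood at 4.16, 3.27 and 3.81 CPM in WT mice and at 6.43, 5.71 and 8.04 CPM in GFAP-IL6 mice. Its log2 fold change was 0.86 (SE 0.210), and it missed both thresholds (adjusted p = 0.0531, edgeR). The ratio of C5ar1 to C3ar1 within a mouse was 0.313, 0.254 and 0.414 in WT and 0.836, 0.857 and 1.02 in GFAP-IL6 animals. These groups did not overlap, and the ratio of their means was 2.77 (exact permutation p = 0.1, the smallest possible).

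The next question was whether the differences held in each of the 4 library sets, which hold 1 library per mouse and are repeats of the same animals. C1qa, C1qb, C1qc, C4b and C5ar1 were called in each set, which made 5 of the 7 members tested, and C3ar1 and Serping1 in none. C3 was too low to be tested in any set. The share of all genes called higher was 0.681% of 12190 in 2 ng set A, 0.736% of 12233 in 2 ng set B, 0.758% of 12407 in 1 ng set A and 0.748% of 12974 in 1 ng set B. The log2 fold change of C4b ran from 3.48 to 3.94 over the sets, that of C1qb from 1.37 to 1.54 and that of C1qc from 1.29 to 1.35. C1qa ran from 1.15 to 1.69 and C5ar1 from 2.19 to 3.96. The high value of C5ar1 was in 2 ng set B, where the 3 WT libraries stood between 0 and 0.490 CPM. C5ar1 rested on few counts within a set, and its call was lost (adjusted p from 0.0954 to 0.474, edgeR) without GFAP-IL6 mouse 3 in 2 ng set A, 1 ng set A and 1 ng set B, without WT mouse 2 in 2 ng set A and 1 ng set B, and without WT mouse 1 in 1 ng set B. C1qa lost its call in 2 ng set B without WT mouse 1 (log2 fold change 0.96) or without GFAP-IL6 mouse 3 (0.94).

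**Figure D2:**
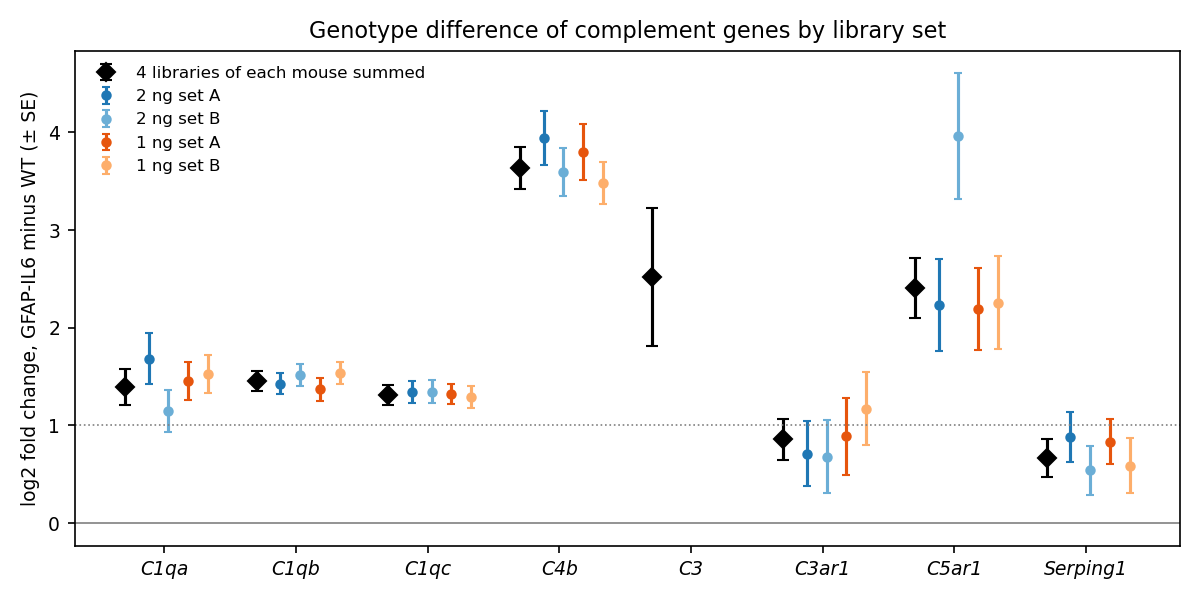
Log2 fold change of GFAP-IL6 over WT (± SE) for the libraries of each mouse summed (black diamonds) and for each set of 6 libraries (circles). The dotted line is the threshold of 1. C3 has a summed value only. C4b lies between 3.48 and 3.94 in every set, and the wide bars of C5ar1 go with its low counts.

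Across single libraries, C1qb ran from 116 to 146 CPM in the 12 WT libraries (median 120) and from 271 to 403 CPM in the 12 GFAP-IL6 libraries (median 354). C4b ran from 2.004 to 6.85 CPM (median 4.71) and from 29.3 to 90.5 CPM (median 56.4). All 12 GFAP-IL6 libraries lay above all WT libraries for C1qb, C1qc, C4b and C5ar1. For C1qa 9 did, for C3 7, for Serping1 4 and for C3ar1 0. The 12 libraries of a genotype are 4 from each of 3 mice and are not separate replicates. The share of all genes with libraries so separated was not computed, while by summed mice it was 8.43%. On the scale of log2(CPM + 1), the SD between libraries of one mouse was 0.0809 for C1qb and 0.106 for C1qc, below the SD between mice of one genotype (0.161 and 0.145). For C1qa the order was turned, with 0.502 between libraries of a mouse and 0.379 between mice. It was also turned for C3 (0.489 and 0.127), C3ar1 (0.448 and 0.169) and C5ar1 (0.451 and 0.269), whose counts were low.

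The spread of C1qa followed the amount of cDNA. Its level at 2 ng was 8.57, 12.7 and 13.7 CPM in WT mice 1 to 3 and 18.1, 28.4 and 35.5 CPM in GFAP-IL6 mice 1 to 3. At 1 ng it was 15.1, 16.0 and 25.5 CPM in the same WT mice and 36.7, 55.5 and 56.0 CPM in the same GFAP-IL6 mice. All 6 mice were lower at 2 ng, at 0.493 to 0.793 times the 1 ng level. The log2 difference of 2 ng from 1 ng was -0.76 (SE 0.156, adjusted p = 0.00172, edgeR), or -0.77 with the mouse as a block (SE 0.0692, adjusted p = 1.91e-25, edgeR), where a gene was called by its adjusted p alone. C1qa was the 1 member called of 7 tested, against 12.2% of 13961 genes. With the block C1qc was called too, at a log2 difference of 0.08 (SE 0.0277, adjusted p = 0.0093, edgeR) and higher at 2 ng in 6 of 6 mice, against 32% of genes. For C1qb, in the same cluster, the log2 difference was -0.02 (SE 0.0753, adjusted p = 0.933, edgeR). The genotype difference of C1qa was not shown to depend on the amount, since the interaction was -0.18 (SE 0.161, unadjusted p = 0.271 and adjusted p = 0.9998, edgeR). No gene was called for this interaction (0%), and 538 of the genes tested had an unadjusted p under 0.05.

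**Figure D3:**
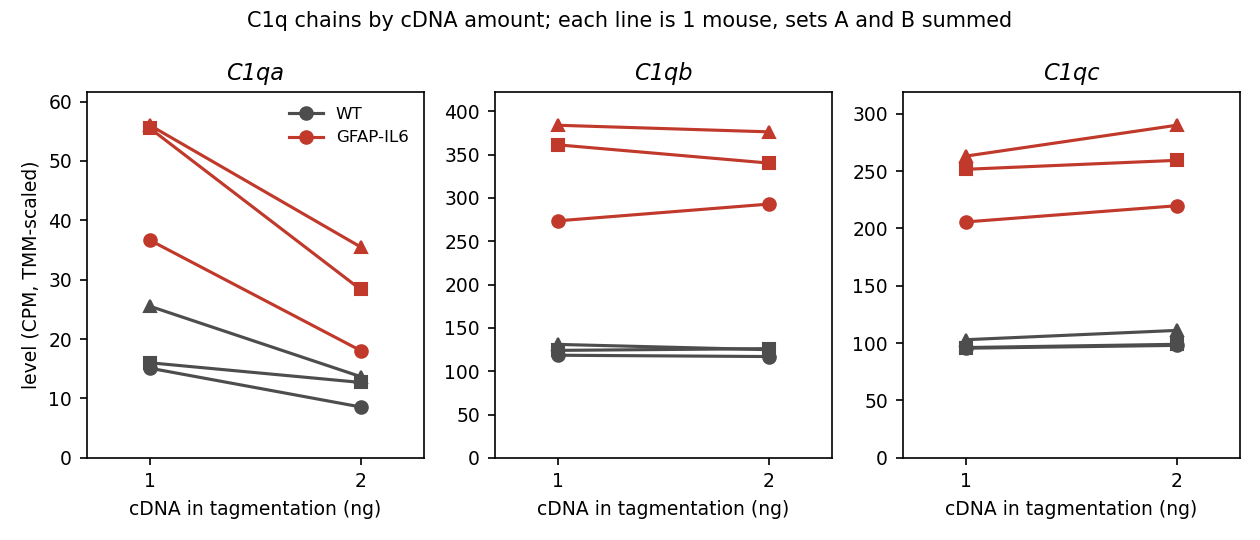
Level of the 3 C1q chains (CPM, TMM-scaled, linear axis from 0) by the amount of cDNA in the tagmentation, in ng. Each line is 1 mouse with sets A and B summed, grey for WT and red for GFAP-IL6. All 6 lines of C1qa fall from 1 to 2 ng, those of C1qc rise by at most 1.10 times, and those of C1qb go both ways.

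Between sets A and B no member was called without the block, against 6.8% of 14167 genes, and none of the 7 tested had an unadjusted p under 0.05 (edgeR). With the mouse as a block C4b was lower in set A, by a log2 difference of -0.30 (SE 0.0856, adjusted p = 0.00408, edgeR), in 6 of 6 mice, against 22.6% of genes called. Its level in set A was 2.82 to 4.77 CPM in WT mice and 32.2 to 69.9 CPM in GFAP-IL6 mice, and in set B 4.87 to 6.23 and 44.6 to 80.8 CPM. C1qb was higher in set A in each WT mouse (ratios 1.03, 1.08 and 1.08) and lower in each GFAP-IL6 mouse (0.971, 0.974 and 0.947). That interaction was -0.14 (SE 0.0607, unadjusted p = 0.0233, edgeR) and did not pass over all genes (adjusted p = 0.998). Here too no gene was called for the interaction (0%), with 597 at an unadjusted p under 0.05.

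Because C1q, C3ar1 and C5ar1 are genes of microglia in the brain, their levels were set beside a list of 12 microglia markers that holds none of the members. In bulk cortex, more cells of a type and more RNA per cell cannot be told apart. The summed marker level was 455 to 511 CPM in WT and 696 to 895 CPM in GFAP-IL6 mice, a ratio of means of 1.65, and none of the 12 was at 0 in every mouse. Of the 12 markers, 2 were called higher (Aif1 and Olfml3) and 7 were higher by adjusted p with no threshold on fold, with a median log2 fold change of 0.62. Examples among those with high levels were Aif1 (log2 fold change 1.22) and Csf1r (0.64). The C1q chains summed rose by 2.61 times over the same mice, from 226 to 254 CPM in WT to 522 to 703 CPM in GFAP-IL6 mice.

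Per unit of marker level, the C1q chains stood at 0.497, 0.462 and 0.544 in WT and at 0.750, 0.841 and 0.785 in GFAP-IL6 mice. The groups did not overlap, and the ratio of their means was 1.58 (exact permutation p = 0.1, the smallest possible). C5ar1 stood at 0.00286, 0.00163 and 0.00337 of the marker level in WT and at 0.00773, 0.00637 and 0.00916 in GFAP-IL6 mice, again without overlap. C3ar1 stood at 0.00915, 0.00640 and 0.00815 in WT and at 0.00925, 0.00743 and 0.00899 in GFAP-IL6 mice. For C3ar1 per marker level the groups overlapped and the ratio of means was 1.08 (exact permutation p = 0.6), while the ratio of means of its CPM level was 1.80 and that of the marker list 1.65. Whether microglial number had a part in these results was not tested.

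C4b was set beside Gfap, a filament gene of astrocytes that lends the transgene its promoter. C4b per Gfap was 0.235, 0.205 and 0.262 in WT and 0.480, 0.562 and 0.520 in GFAP-IL6 mice, without overlap and with a ratio of means of 2.22 (exact permutation p = 0.1, the smallest possible). Of 8 astrocyte markers 1 was called higher, Gfap itself, and the list summed to 2932 to 3027 CPM in WT and 3297 to 3502 CPM in GFAP-IL6 mice. Border macrophage markers (7 tested, 0 called by edgeR or DESeq2, 1 at an unadjusted p under 0.05) summed to 13.3 to 15.6 CPM in WT and 11.5 to 16.0 CPM in GFAP-IL6 mice. Of 6 monocyte and neutrophil markers 3 were tested, 0 called by edgeR or DESeq2 and 0 at an unadjusted p under 0.05, and their sum was 0.656 to 3.93 CPM in WT and 2.11 to 6.82 CPM in GFAP-IL6 mice. The 5 lymphocyte markers were too low to test, at a sum of 0.131 to 0.572 CPM in WT and 0.624 to 0.949 CPM in GFAP-IL6 mice. Fibroblast, neuron, oligodendrocyte, choroid plexus and red blood cell lists had 0 markers called by edgeR, at any fold, or by DESeq2, and 0, 0, 0, 1 and 1 at an unadjusted p under 0.05 in that order. Of 5 endothelial markers 2 were higher by adjusted p and under the fold threshold (Ly6c1 at 0.82 and Flt1 at 0.70), with a sum of 114 to 122 CPM in WT and 134 to 221 CPM in GFAP-IL6 mice. Of 4 pericyte and smooth muscle markers 1 was so (Rgs5 at 0.52), with a sum of 66.1 to 93.1 CPM in WT and 103 to 121 CPM in GFAP-IL6 mice. The part of vascular cells in the results was not tested.

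**Figure D4:**
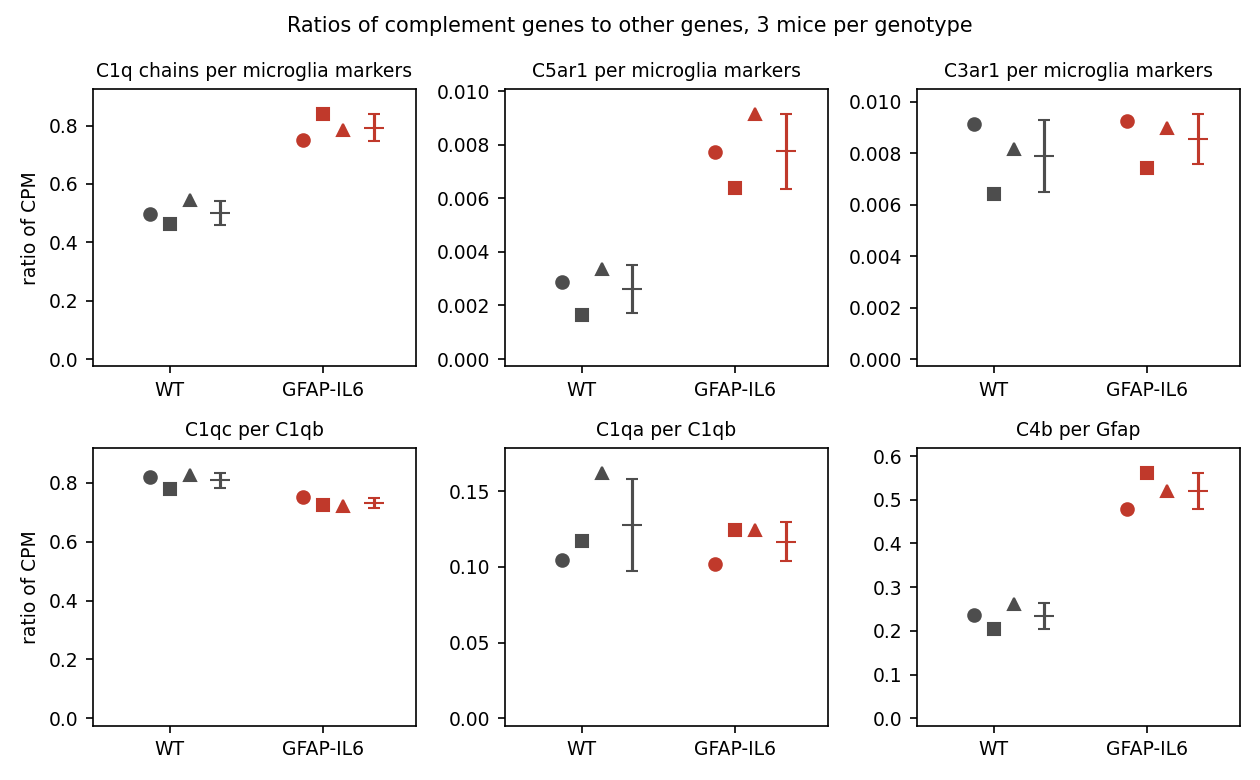
Ratio of CPM values within each mouse (libraries summed) for 6 pairs of quantities, on linear axes, with WT in grey and GFAP-IL6 in red. Symbols are mice and the bars are the mean ± SD (n = 3). C1q per microglia markers, C5ar1 per microglia markers and C4b per Gfap are higher in each red mouse, C1qc per C1qb is lower, and C3ar1 per microglia markers and C1qa per C1qb overlap.

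The rest of the complement system was read from 4 lists. Of 14 other genes of the classical and lectin pathways 4 were tested, 0 called by edgeR or DESeq2 and 1 at an unadjusted p under 0.05. That was C1s1, which encodes a protease of the C1 complex, at a log2 fold change of 1.43 (SE 0.421, adjusted p = 0.143). Of 10 genes of the alternative and terminal pathways 2 were tested, 0 called by edgeR or DESeq2 and 1 at an unadjusted p under 0.05. That was Cfp, which encodes properdin, at 0.98 (SE 0.274, adjusted p = 0.117). Of 19 other regulators 13 were tested, 0 called by edgeR or DESeq2 and 2 at an unadjusted p under 0.05. C1s1 and Cfp were chosen for mention after their values were seen.

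Of 8 other complement receptors and C1q-binding proteins 5 were tested and 2 called. These were Itgam and Itgb2, whose products pair as complement receptor CR3, which binds a fragment of C3. Itgam stood at 6.45, 5.87 and 5.77 CPM in WT and at 13.5, 18.6 and 22.1 CPM in GFAP-IL6 mice, a log2 fold change of 1.6 (SE 0.177, adjusted p = 7.5e-05, edgeR). Itgb2 stood at 2.71, 2.27 and 2.36 CPM in WT and at 6.33, 8.39 and 9.13 CPM in GFAP-IL6 mice, a log2 fold change of 1.71 (SE 0.215, adjusted p = 0.000273, edgeR). Both were higher in each GFAP-IL6 mouse. The 5 uncalled complement genes with the highest levels were Clu (clusterin), C1qbp, Susd4, Vtn (vitronectin) and Csmd3, with log2 fold changes of 0.17, -0.14, -0.09, 0.16 and 0.03. Clu, an inhibitor of the terminal pathway, stood at 1279, 1462 and 1374 CPM in WT and at 1315, 1591 and 1735 CPM in GFAP-IL6 mice, with overlapping groups.

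**Figure D5:**
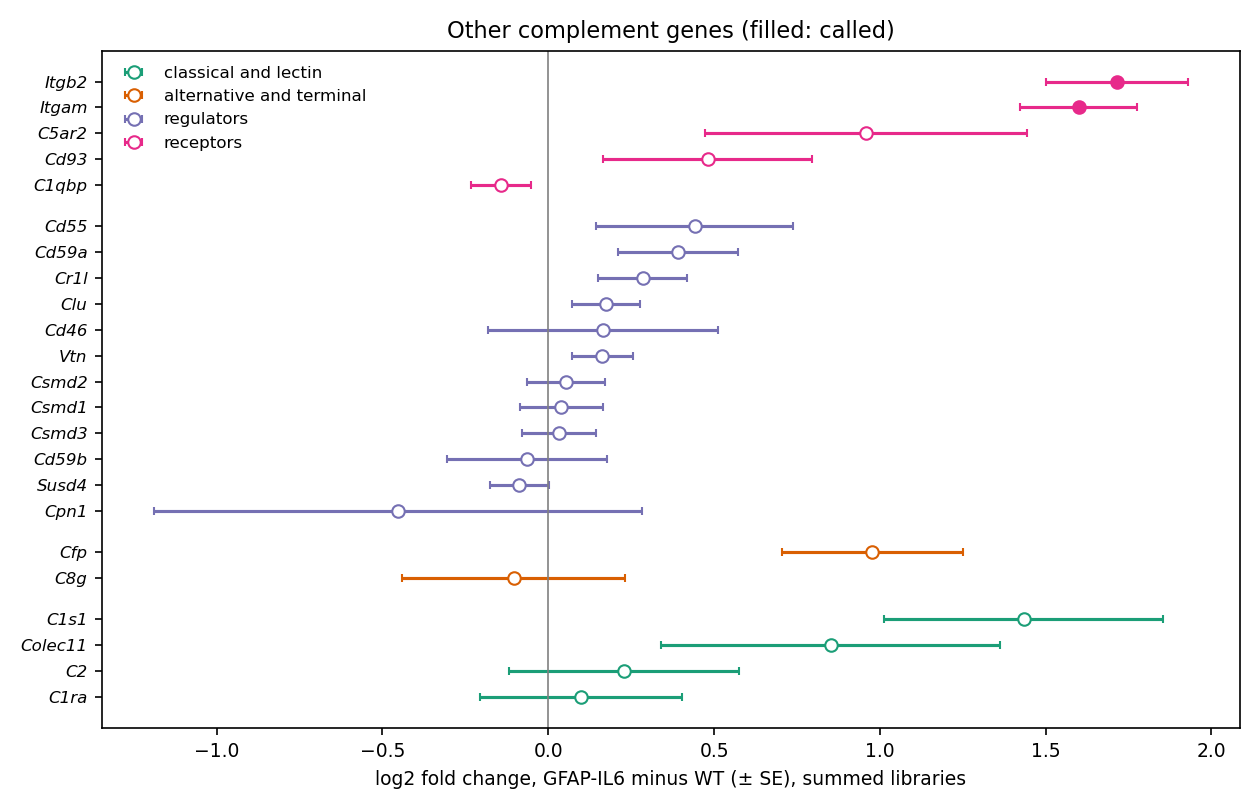
Log2 fold change of GFAP-IL6 over WT (± SE, libraries summed per mouse) for tested complement genes outside the 9 (12 of the 13 regulators), grouped by role in colour. Filled points were called and open points were not. Itgam (1.6) and Itgb2 (1.71) are the filled points, and most regulators lie near 0.

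The genes whose log2(CPM + 1) over the 24 libraries was most like that of C4b were Gfap (Pearson r = 0.984), Scgb3a1 (0.983), Ctss (0.981), Trem2 (0.979) and C1qb (0.978), among 8988 genes with a mean of at least 10 CPM. For the C1q chains summed they were Scgb3a1 (0.985), Ctss (0.984), Fcgr2b (0.982), Lyz2 (0.978) and C4b (0.977). These are descriptions over libraries that share mice, 4 to a mouse, and the difference between genotypes lies in every value.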

How the data were processed

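3'Pool-seq libraries were made from frontal cortex RNA of 3 WT and 3 GFAP-IL6 mice, and each mouse gave 4. The authors mapped reads with STAR to mm10, assigned those with a unique position to GENCODE genes with featureCounts, and deposited 1 table of raw counts. The labels name hg19 as the build, but the table holds mouse gene identifiers. Positions are from a later GENCODE release on mm10. Every sample column of the table was matched to a label. Counts were summed per mouse and tested with edgeR 4.0.16 (TMM, filterByExpr, quasi-likelihood test, R 4.3.3), with p-values adjusted over all genes tested. The SE is the log2 fold change divided by the square root of F. Single values were tested by exact permutation over mice. For cDNA amount and set letter, the p-values with the mouse as a block measure the spread between libraries of the same RNA. Those without the block also hold the spread between mice of a genotype. The interaction tests held the mouse block. DESeq2 1.42.0 and limma 3.58.1 (voom) served as alternatives, and the test was checked on simulated data. Depth limits precision for C3 and C5ar1, and intervals cover counting error only. C4a and the sum of C4a and C4b are not analysed here. The members, gene lists and motifs were chosen with earlier results of these data known. Results of some genes are not reported here. The genes named were the members, other complement genes that were called, the 5 uncalled ones with the highest mean level, at most 3 examples per marker list by level or by call, and the 5 genes most like C4b and C1q.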

Additional observations from a re-analysis of the deposited data

How the results depend on the processing

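With the libraries of each mouse summed, C1qa, C1qb, C1qc, C4b and C5ar1 were called under DESeq2, its size factors, library totals without TMM, testing of every gene however low, a minimum of 10 counts in all summed samples, thinning to 7852743 counts per mouse, limma voom over the 24 libraries with mice as random effects, and without any 1 mouse. At an adjusted p under 0.1 and a log2 fold change above 1.5 the members called fell from 5 to 2, since the 3 C1q chains lay under that fold. With a replicate block of same-numbered mice 5 were called, as without it. The correlations of deviations of same-numbered mice were -0.049, -0.032 and -0.034. With 3 mice per genotype these values cannot decide whether the numbers pair the mice. With the mouse as a replicate block, members called rose from 1 to 2 for cDNA amount and from 0 to 1 for set letter, and the log2 difference of C1qb between sets turned from 0.0127 to -0.0041, both within 1 SE of 0. The adjusted p of the uncalled members ranged over alternatives from 0.00703 to 0.499 for C3ar1, from 0.000788 to 0.847 for Serping1 and from 0.0632 to 0.465 for C3, with low values for C3ar1 and Serping1 without a low-count filter (0.00703 and 0.000788) and under voom (0.0155 and 0.00917), and for C3ar1 with library totals without TMM (0.0387), at log2 fold changes under 1. Within the sets, leaving out 1 replicate left 4 to 5 members called, and C5ar1 in 2 ng set A was lost under DESeq2 (adjusted p = 0.0985). C3 could not be tested under the filter of 10 counts, thinning or voom, and the sum of C4a and C4b was not run. Depth limits C3 and, within a set, C5ar1.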
